A study of Mus musculus with 12 samples.

Results

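Rosiglitazone was compared with its vehicle in mouse bone marrow mesenchymal stem cells that were being turned into fat cells. The comparison took the 4 ROSI and the 4 DMSO libraries, 8 of the 12 libraries of the series, and covered the 12323 genes, of 23955 gene symbols counted, that had enough reads to test. The cells were a commercial stromal line from female C57BL/6 mice at passages 9 to 10. Both groups were kept for 14 days in the same induction cocktail, which held insulin at 5 ug/mL, isobutylmethylxanthine at 0.5 mM and dexamethasone at 1 uM. The DMSO group was given 0.1% DMSO as vehicle and the ROSI group 500 nM rosiglitazone, and the labels do not state the solvent content of the ROSI cultures. The DMSO cultures were therefore induced cultures without the ligand, not untreated stroma. The other 4 libraries, from cells given 50 nM tributyltin (TBT), were not compared here. They entered the estimate of the spread between libraries, the choice of genes to test and the scaling of the libraries. Nothing in the labels tells if replicate libraries were made from different cultures or animals. The p-values therefore reflect variation among libraries, and this variation may be technical only.

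Rosiglitazone is a ligand of PPARγ, the nuclear receptor that drives fat-cell differentiation. PPARγ binds DNA as a pair with a retinoid X receptor and switches on genes of lipid storage and fat burning. Marrow stromal cells make matrix and secrete growth factors, and can also become bone or cartilage cells. Textbook fat-cell genes are used here for scale only, and most of what follows concerns other genes.

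Promoter stretches of 7 genes are printed first, because 3 programmes described below, those of interferon, mitosis and amino acid supply, each have a known promoter element. The genes were picked for holding the element after their values were seen. Sequences are from RefSeq on GRCm38.p6, given on the gene's own strand, and capitals mark matches to the motif. The interferon-stimulated response element was searched as GAAA, any 2 bases and GAAA, on either strand. Ifit1, coding for an antiviral RNA-binding protein, has 2 matches in chr19:34640744-34640833 (plus strand, from position -145 to -56, where -1 is the base before the gene's start), and its neighbour Ifit3 has 2 in chr19:34583347-34583436 (plus strand, -182 to -93).
Ifit1: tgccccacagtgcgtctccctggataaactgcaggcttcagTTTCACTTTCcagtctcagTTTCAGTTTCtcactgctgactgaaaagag
Ifit3: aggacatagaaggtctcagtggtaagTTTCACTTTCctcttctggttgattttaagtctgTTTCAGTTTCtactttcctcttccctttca

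The cell cycle homology region, the element of many genes expressed in mitosis, was searched as TTTGAA on either strand. It is shown for Top2a, the DNA topoisomerase of dividing cells (chr11:99024190-99024279, minus strand, -90 to -1), and for Mki67, which encodes the proliferation antigen Ki-67 (chr7:135716452-135716541, minus strand, -162 to -73).
Top2a: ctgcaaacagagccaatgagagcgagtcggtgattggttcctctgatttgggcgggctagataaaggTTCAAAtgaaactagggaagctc
Mki67: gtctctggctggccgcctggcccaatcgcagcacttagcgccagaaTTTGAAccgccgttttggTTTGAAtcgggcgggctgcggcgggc

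The element bound by ATF4, the transcription factor of the amino acid response, was searched as TGATGNAAN on either strand. It is shown for Slc7a11, a cystine importer (chr3:50443633-50443722, minus strand, -109 to -20), Nupr1, a small stress protein (chr7:126625553-126625642, minus strand, -172 to -83), and Got1, the cytosolic aspartate aminotransferase (chr19:43524680-43524769, minus strand, -164 to -75).
Slc7a11: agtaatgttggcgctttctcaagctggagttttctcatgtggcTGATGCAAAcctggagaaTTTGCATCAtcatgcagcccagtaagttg
Nupr1: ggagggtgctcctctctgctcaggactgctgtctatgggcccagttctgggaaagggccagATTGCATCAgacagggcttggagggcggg
Got1: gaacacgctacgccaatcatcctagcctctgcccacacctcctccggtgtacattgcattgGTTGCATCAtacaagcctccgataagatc

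Library totals ran from 4074568 to 7111542 counts in DMSO and from 4027152 to 7474654 in ROSI. Levels are given as counts scaled to library size (CPM). The groups also differed in reads that fell on 1504 olfactory, vomeronasal, taste and trace amine receptor genes: 775, 667, 295 and 383 CPM in DMSO replicates 1 to 4, against 62.8 to 75.98 in ROSI. Per receptor gene this was a mean of 0.196 to 0.515 CPM in DMSO and 0.0418 to 0.0505 in ROSI. Only 8 receptor genes had enough reads to be tested. The part of such reads in the decreases below was not tested, and the genes named as lower below had DMSO means of at least 3.81 CPM unless their values are given. Markers of blood and vessel cells were low: the 12 macrophage markers summed to 25.4 to 30.9 CPM in DMSO and 19.3 to 30.8 in ROSI, with Tyrobp at 0 in all 8 libraries and Cd68 higher in ROSI (0.73 ± 0.23), and the 10 endothelial markers to 9.27 to 11.5 and 5.52 to 9.0, with Tie1 and Cldn5 at 0. Of the endothelial markers Kdr was called lower (means of 4.64 and 1.41 CPM in DMSO and ROSI) and Egfl7 higher (1.00 and 3.29), and the erythroid marker Alas2 was lower (19.3 and 11.7), a call lost without DMSO replicate 3. The 10 stromal markers summed to 3301 to 4361 CPM in DMSO and 1595 to 1775 in ROSI, with 4 of 9 tested lower, 0 higher and 5 not called. Pdgfra, Ly6a and Cxcl12 made up most of this sum. Vcam1 had means of 64.3 and 76.8 CPM in DMSO and ROSI, and Cd44 59.8 and 56.1. The 12 osteoblast markers summed to 721 to 1032 and 290 to 444 CPM, with 5 of 7 tested lower, 2 not called and Dmp1 at 0. The log2 fold changes of these 7 ran from -2.55 to -0.34. The 11 chondrocyte markers summed to 353 to 420 and 177 to 247 CPM, with 2 of 5 tested lower, 3 not called and Matn1 at 0. Of the osteoblast markers, Runx2 had means of 216 and 171 CPM in DMSO and ROSI, and Alpl 26.7 and 19.2. Bglap, Ibsp and Sp7 had too few reads to be tested. In such bulk RNA, fewer cells of a type and less RNA per cell cannot be told apart.

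Across all genes, 2787 passed the threshold (22.6% of those tested; edgeR quasi-likelihood test, Benjamini-Hochberg adjusted p under 0.05). Of these, 1237 were higher in ROSI (10.0%) and 1550 lower (12.6%). By at least 2-fold, 397 genes were higher (3.22%) and 785 lower (6.37%). In 1596 genes all 4 ROSI libraries lay above all 4 DMSO libraries (13.0%), and in 1892 they all lay below (15.4%). The median gene differed by 0.01 on the log2 scale. Counts of calls for each marker list above and each gene programme below are to be read against the 10.0% and 12.6%.

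DMSO replicate 3 lay nearer to the ROSI libraries than the other DMSO libraries did. Across genes, its log2 CPM correlated with the 4 ROSI libraries at r = 0.953 to 0.966, against 0.919 to 0.943 for the other DMSO libraries. With DMSO replicate 3 left out, 1267 genes were called with at least a 2-fold difference, 3.84% of tested genes higher and 6.44% lower, and on these genes the left-out library lay 0.27 of the way (median) from the other DMSO libraries to ROSI. The other DMSO libraries, treated the same way, lay at -0.08 to 0.003, and the ROSI libraries at -0.02 to 0.13 of the way to DMSO. The shift was larger for genes higher in ROSI, at 0.39 over 473 genes, of which 97.5% were moved toward ROSI, than for genes lower in ROSI, at 0.20 over 794 genes, of which 86.6% were. This difference between the 2 directions was not tested. The depth of this library, 7111542 counts, was the highest of the DMSO group and below the 7474654 of ROSI replicate 3.

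**Figure D1:**
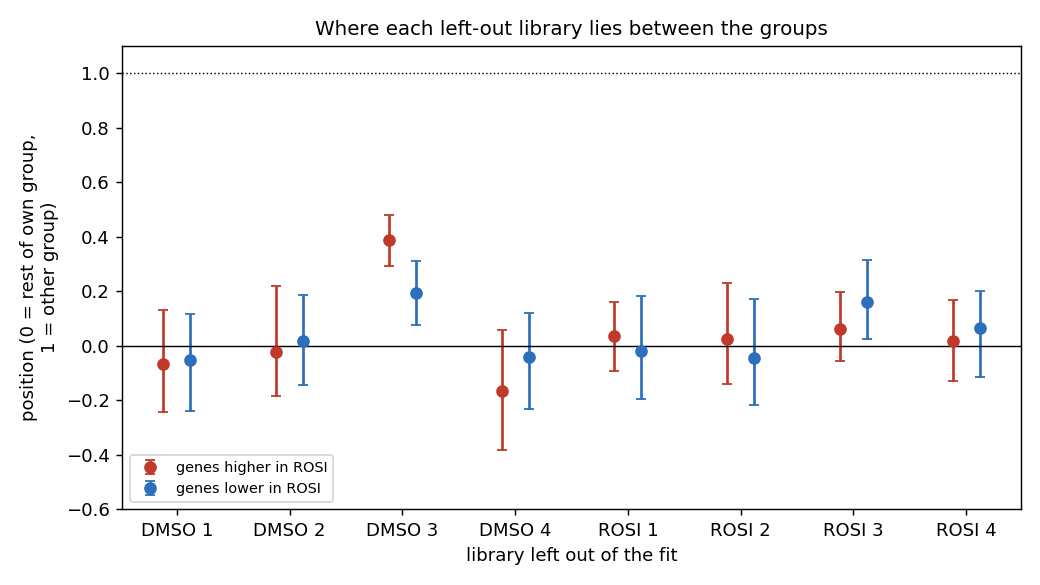
Median position of each library between the 2 groups when it was left out of the fit (0 is the rest of its own group, 1 is the other group), for genes called with at least 2-fold in that fit; bars span the quartiles over genes. DMSO replicate 3 sits at 0.39 for higher and 0.20 for lower genes, while the other DMSO libraries sit near or below 0.

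Most calls did not need DMSO replicate 3. Without it, 2613 genes passed (21.2%), 1197 higher (9.71%) and 1416 lower (11.5%), of which 2491 were among the 2787, and no gene switched direction. Of the 1117 genes called higher both times, 1072 had a larger fold change without it, the fold being over 1.5 times larger in 32 genes, and their median log2 fold change went from 0.80 to 0.89. Of the 1374 called lower both times, 1145 had a larger fold change without it, none by over 1.5 times, and the median log2 fold change went from -1.09 to -1.13. The genes most affected were among the strongest increases. Chchd10, a protein of mitochondrial cristae, had 1.19, 1.17, 21.1 and 0.790 CPM in DMSO replicates 1 to 4 and 78.7, 72.4, 34.3 and 33.1 in ROSI. Its log2 fold change of 3.00 became 5.72 without DMSO replicate 3. Tusc5, a fat-cell protein of glucose transporter recycling, had 4.28, 7.25, 52.2 and 6.32 CPM in DMSO and 182 to 215 in ROSI. Its log2 fold change went from 3.42 to 5.06. For both genes every ROSI library was still above DMSO replicate 3. Among genes lower in ROSI, those whose DMSO replicate 3 value lay farthest toward ROSI were Uba7, the enzyme that activates the ubiquitin-like protein ISG15, Zbp1, Mx2, Ccl9 and Ccl2. Zbp1, a sensor of Z-form nucleic acids, had 57.5, 30.6, 15.3 and 24.7 CPM in DMSO and 0.752 to 1.605 in ROSI.

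**Figure D2:**
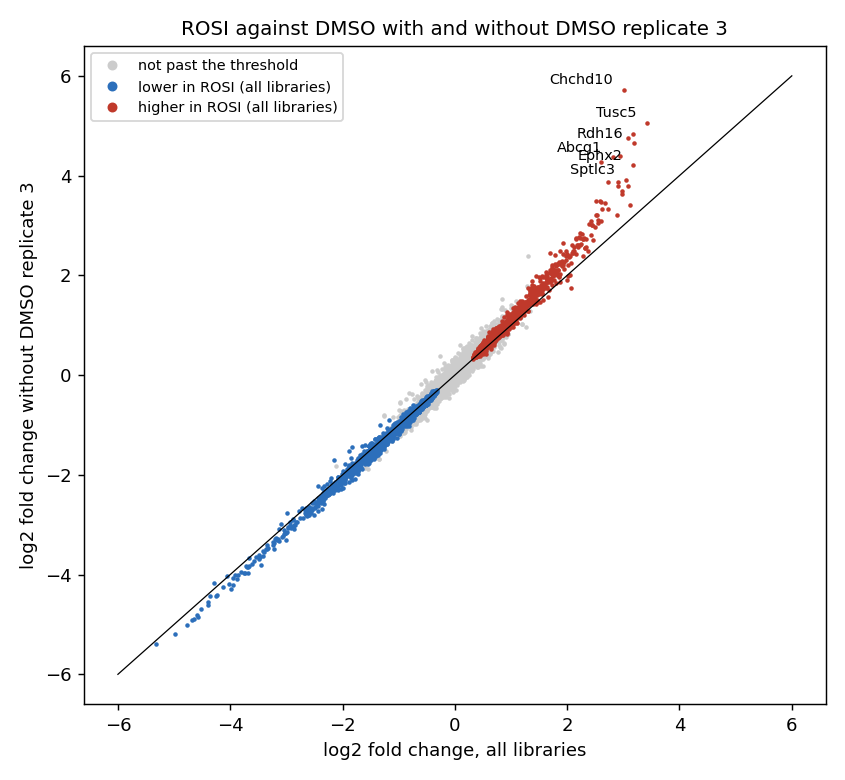
Log2 fold change of each tested gene, ROSI against DMSO, with all libraries (x axis) and without DMSO replicate 3 (y axis); the line marks equal values and colours the calls made with all libraries. The strongest increases lie above the line, with Chchd10 at 3.00 and 5.72, whereas the decreases lie near it.

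Without that library, 120 higher and 176 lower calls were lost, and 80 higher and 42 lower calls appeared. Of the 2787 calls, 2491 were made without it, against 2161, 2276 and 2171 without DMSO replicate 1, 2 and 4, so each of the other vehicle libraries cost more calls when left out. The higher genes with the smallest p among those gained were C1galt1c1, the chaperone of a mucin-type glycosyltransferase, Fubp3, Zbed4, the small nucleolar RNA Snora33 and Lyrm9, with log2 fold changes of 0.40 to 0.83 with all libraries and 0.55 to 1.17 without DMSO replicate 3. C1galt1c1 had 60.2 CPM in DMSO replicate 3, 15.0 to 38.3 in the others and 54.1 to 70.9 in ROSI. The lower genes gained were led by Anxa2, a membrane-binding annexin, Rsbn1l, Tspan4, Zfp758 and Wdhd1. Anxa2 had 87.4 and 120 CPM in DMSO replicates 1 and 2 but 43.8 and 44.7 in replicates 3 and 4, which lay within the ROSI range of 37.4 to 56.5. Calls lost without it included Muc6, a gel-forming mucin, at -0.74 and -0.61, Cyp1b1, a cytochrome P450, at -0.65 and -0.57, and Drp2 at -0.74 and -0.67 (log2 fold change with and without DMSO replicate 3). For these 3 the adjusted p went from 0.017 to between 0.050 and 0.073 (edgeR). Their calls were not lost with that library alone: Muc6 was also lost without DMSO replicate 4 or ROSI replicate 4, Cyp1b1 without DMSO replicate 1 or ROSI replicate 1, and Drp2 without ROSI replicate 1.

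The 61 fat-cell genes tested set the scale: 53 were higher and 2 lower, with a median log2 fold change of 1.56, and of 1.77 without DMSO replicate 3. In Fabp4, a lipid-binding carrier protein, the DMSO libraries had 85.5, 126, 314 and 63.8 CPM and the ROSI libraries 1090 to 1292. Cidec, which enlarges lipid droplets, had 48.7, 86.8, 162 and 66.4 CPM in DMSO and 344 to 561 in ROSI. DMSO replicate 3 was the highest vehicle library for both. Of the 47 fat-cell genes higher by at least 2-fold without it, all 47 were shifted toward ROSI in that library, at a median of 0.41 of the way.

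**Figure D3:**
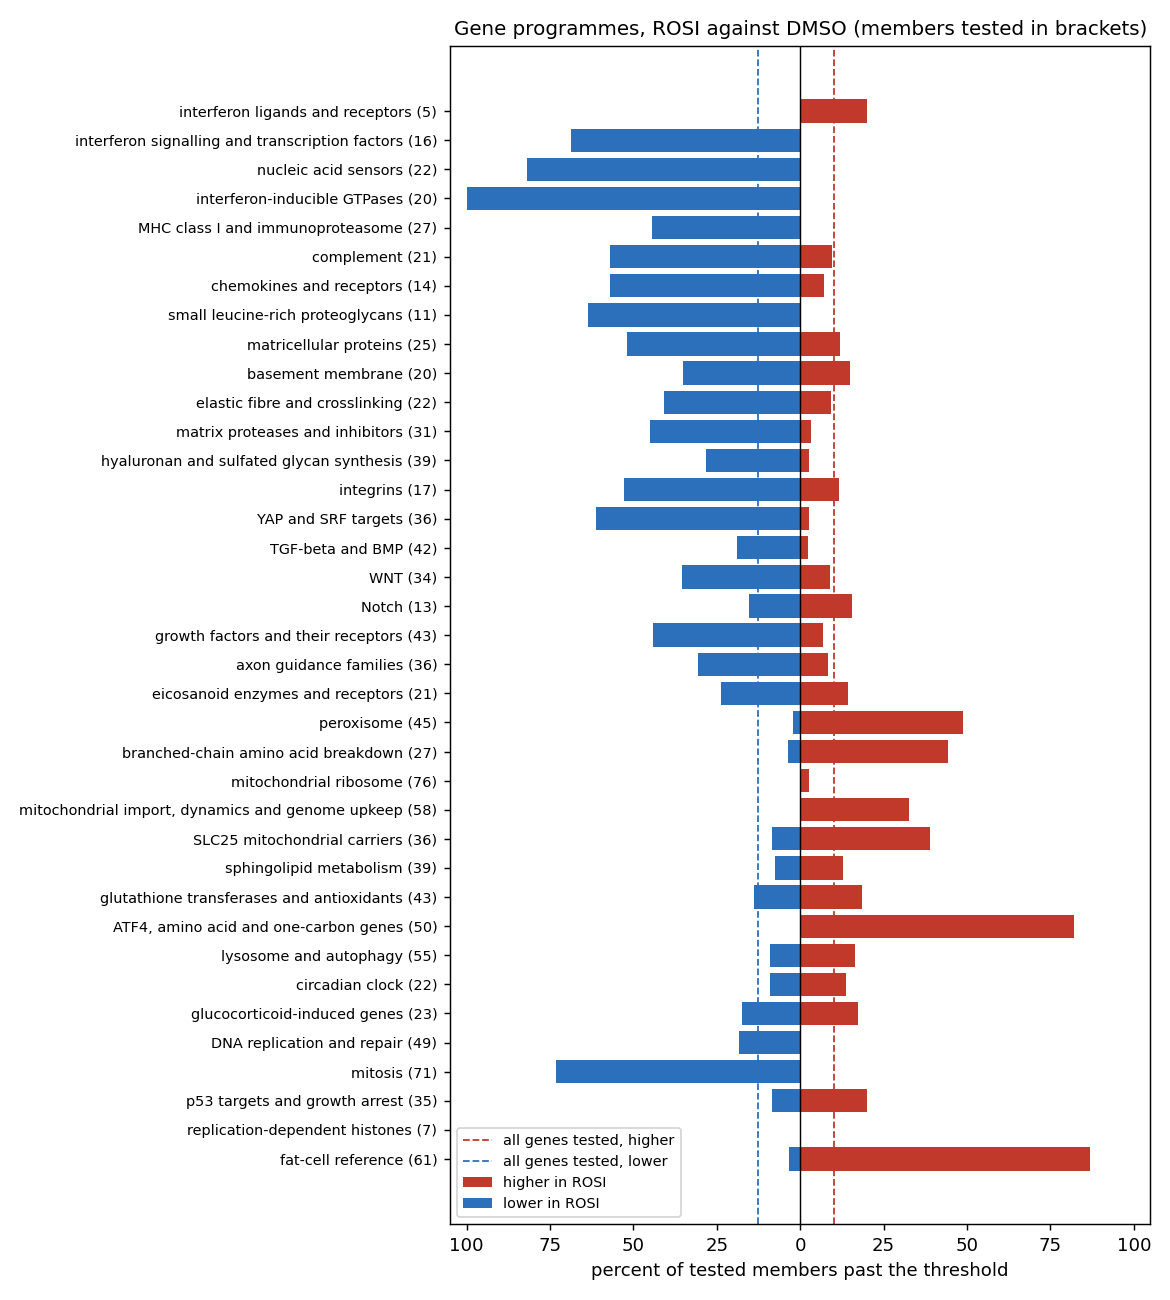
Share of the tested members of each gene programme that passed the threshold lower (left) and higher (right) in ROSI; the dashed lines mark the 12.6% and 10.0% of all tested genes. Most interferon programmes and the mitosis and matrix programmes extend to the left, and the fat-cell, ATF4, peroxisome and most mitochondrial programmes to the right. The exceptions are interferon ligands and receptors (0% lower, 20% higher) and the mitochondrial ribosome (2.63% higher).

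Genes of amino acid supply and of the ATF4 response were higher as a group. ATF4 is a transcription factor that is translated when amino acids run short or the endoplasmic reticulum is stressed, and it raises amino acid import, synthesis and tRNA charging. Of 50 tested genes, 41 were higher and 0 lower (82.0% against 10.0% of all genes), with a median log2 fold change of 0.91. By role, 8 of 9 amino acid transporters, 13 of 16 enzymes of serine, glycine, proline, asparagine and one-carbon metabolism, 10 of 13 genes of tRNA charging and export, and 9 of 11 transcription factors and stress effectors were higher. Atf4 itself had 266, 232, 218 and 159 CPM in DMSO and 375, 479, 310 and 358 in ROSI. Its log2 fold change was 0.80 ± 0.18 (SE). The groups did not overlap.

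The smallest p in this programme was that of Mthfd2, the mitochondrial folate enzyme of one-carbon metabolism. Its levels were 61.1, 52.9, 71.3 and 46.9 CPM in DMSO and 140, 182, 188 and 210 in ROSI, a log2 fold change of 1.63 ± 0.19 (edgeR adjusted p = 9.6e-06). Gpt2, the mitochondrial alanine aminotransferase, had 33.3 to 55.4 CPM in DMSO and 106 to 113 in ROSI (1.34 ± 0.16), and Stc2, a secreted glycoprotein, 11.5 to 19.2 and 40.1 to 42.7 (1.52 ± 0.19). Of the genes whose promoters are printed above, Slc7a11 had 38.3, 21.8, 34.7 and 19.1 CPM in DMSO and 84.2, 155, 72.8 and 98.5 in ROSI, Nupr1 52.4 to 61.8 and 81.5 to 121, and Got1 79.0 to 105.5 and 131 to 162. None of the 3 overlapped between groups. ROSI replicate 2 was the highest library in these 3 genes, in Atf4 and in the programme's median, which stood at 0.80 above the 8-library mean in that library (log2) and at 0.29 to 0.42 in the other ROSI libraries. In the fits that each left out 1 of the 12 libraries, 33 to 43 members were higher. The members not called included Ddit4, Cebpb, Slc38a2, Phgdh, Shmt1 and Mthfd1. Phgdh, the first enzyme of serine synthesis, was at 0.56 ± 0.30.

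On promoters, 41 of the 50 ATF4-programme genes matched the RefSeq table, with 47 promoters of 300 bases. The ATF4 element was found in 31.9% of them and in 3.95% of all 32851 promoters of the table. Among promoters of tested genes, of which 9724 of 12323 matched the table, the share was 2.30%. In the Slc7a11 sequence above it occurs on either strand, and those of Nupr1 and Got1 hold 1 match each. The list was assembled partly from known ATF4 targets, so this share describes the list.

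Peroxisomes, which shorten very long and branched fatty acids, also had higher genes: 22 of 45 rose and 1 fell (48.9% against 10.0%), with a median of 0.56. Of 16 peroxins, the proteins that build the organelle, 6 were higher, and of 29 enzymes and transporters 16 were higher. Crat, carnitine acetyltransferase, had 67.0, 72.1, 107 and 67.5 CPM in DMSO and 224 to 277 in ROSI (log2 fold change 1.66 ± 0.15). Pex11a, a peroxin of peroxisome division, went from 6.42 to 11.9 CPM to 24.01 to 36.4. Neither gene overlapped between groups. Catalase (Cat), which breaks down the peroxide that these enzymes make, rose by 1.43 ± 0.26. Acox2, which acts on branched chains and bile acid precursors, rose by 2.62 ± 0.37 from 0.316 to 3.18 CPM in DMSO. The exception was Abcd2, a transporter of very long chain fatty acids, at 51.3 to 66.1 CPM in DMSO and 19.3 to 28.7 in ROSI (-1.25 ± 0.14). DMSO replicate 3 lay 0.46 of the way to ROSI on the 9 peroxisomal genes that were higher by at least 2-fold without it.

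Mitochondrial genes rose unevenly. Of 58 genes of protein import, membrane dynamics and genome upkeep, 19 were higher and 0 lower (32.8% against 10.0%). By role these were 6 of 11 chaperones and proteases, 6 of 10 genes of fusion, fission and cristae, 5 of 25 translocases and porins, and 2 of 11 genes of genome upkeep and regulation. Lonp1, the matrix protease, had 56.5, 61.1, 69.8 and 52.6 CPM in DMSO and 130, 164, 128 and 140 in ROSI. The matrix chaperones Hspa9 and Hspd1 went from 268 to 391 and 176 to 268 CPM to 671 to 940 and 437 to 557. By contrast, of 76 tested genes of the mitochondrial ribosome only Mrpl30 (0.39 ± 0.12) and Mrpl38 (0.69 ± 0.22) passed (2.63%), and their adjusted p of 0.029 and 0.033 (edgeR) became 0.057 and 0.052 without DMSO replicate 3. Both calls were also lost without DMSO replicate 4 and without ROSI replicate 1, 2 or 4, and that of Mrpl30 without DMSO replicate 1. The difference between the 2 mitochondrial lists was not tested.

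Carriers of the inner mitochondrial membrane, the SLC25 family, had 14 of 36 genes higher and 3 lower (38.9% and 8.33%). Slc25a34 had 0.713, 0.702, 2.90 and 1.26 CPM in DMSO and 10.4 to 15.0 in ROSI, a log2 fold change of 3.08 ± 0.35 and of 3.79 without DMSO replicate 3. Slc25a42, which carries coenzyme A, went from 14.3 to 23.3 CPM to 39.3 to 41.4, and Slc25a33, a pyrimidine nucleotide carrier, from 6.55 to 8.15 CPM to 14.5 to 21.8. Slc25a24, a calcium-regulated ATP carrier, fell from 55.3 to 74.1 CPM to 22.5 to 30.6. The count of higher carriers was 9 without DMSO replicate 1, without DMSO replicate 4 or without ROSI replicate 2. Breakdown of branched-chain amino acids, a carbon source of fat synthesis, had 12 of 27 genes higher and 1 lower (44.4% against 10.0%). Aldh6a1, of the valine route, had 83.4 to 147 CPM in DMSO and 280 to 317 in ROSI. Dld, a shared dehydrogenase subunit, rose by 0.92 ± 0.14 and Bcat2, the mitochondrial aminotransferase, by 1.48 ± 0.27. The member that fell, Abat, breaks down GABA (-0.55 ± 0.14). Without DMSO replicates 1 and 2 the higher counts were 9 for mitochondrial import and upkeep, 7 for the carriers and 6 for branched-chain breakdown.

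A few sphingolipid genes were among the sharpest increases although the family as a whole was not: 5 of 39 were higher and 3 lower (12.8% and 7.69%), with a median of 0.03. Sptlc3, a subunit of the enzyme that starts sphingolipid synthesis, had 7.84, 5.85, 25.4 and 5.69 CPM in DMSO and 89.0, 100, 96.0 and 99.7 in ROSI. Acer2, a Golgi ceramidase, had 6.18, 6.32, 26.7 and 3.16 CPM in DMSO and 68.4 to 81.5 in ROSI. Both had a single high vehicle library, DMSO replicate 3, and their log2 fold changes of 3.04 and 2.73 became 3.92 and 3.87 without it. Ormdl3, a regulator of the starting enzyme, rose from 20.2 to 32.3 CPM to 57.8 to 67.0. B4galt5, a lactosylceramide synthase, fell by 0.68 on the log2 scale.

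**Figure D4:**
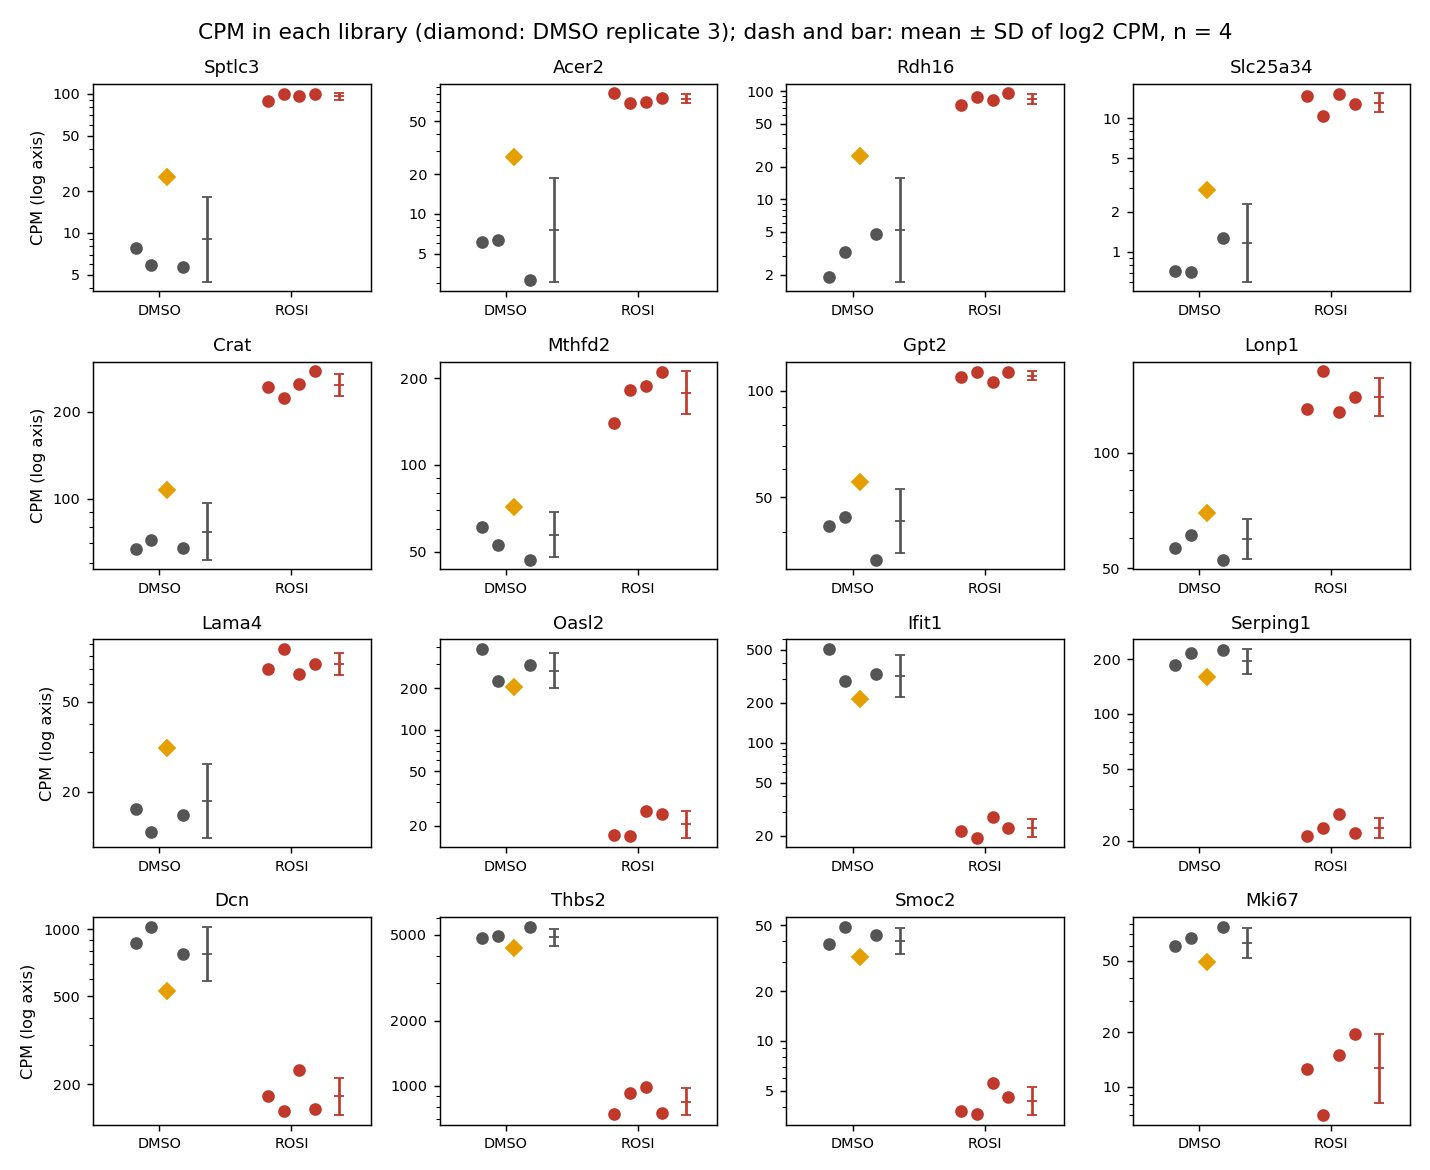
CPM of 16 genes in each library on a log axis, with mean and SD of log2 CPM (n = 4) beside the points; DMSO replicate 3 is the diamond. In Sptlc3, Acer2, Rdh16 and Slc25a34 the diamond stands apart from the other vehicle libraries toward ROSI, and in all 16 genes the 2 groups do not overlap.

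Outside all gene lists, the largest increases without DMSO replicate 3 were in Rdh16, a retinol and steroid dehydrogenase, and its neighbour pseudogene Rdh18-ps. Rdh16 had 1.90, 3.28, 24.9 and 4.74 CPM in DMSO and 75.2, 89.3, 82.4 and 96.1 in ROSI (log2 fold change 3.19 ± 0.46, and 4.64 without DMSO replicate 3). Rdh18-ps had 0.475 to 7.46 and 19.6 to 25.9 CPM. The 2 are close copies, so reads could be split between them and neither level is certain. Abcg1, a cholesterol exporter, had 1.90, 5.62, 33.0 and 4.74 CPM in DMSO and 77.6 to 99.5 in ROSI (2.82 ± 0.49, and 4.37 without DMSO replicate 3). Kcnk3, a potassium leak channel, Itih4, a hyaluronan-associated plasma protein, Adig, a fat-cell membrane protein, and Reep6, an endoplasmic reticulum protein, followed with 3.50, 3.44, 3.08 and 3.04 without that library. The 5 that followed were Cdsn, an adhesion protein best known from skin, Adora1, an adenosine receptor, Fam107a, Cmbl and Fam213a, between 2.75 and 3.03. In all 12 genes every ROSI library was above every DMSO library. In each of the 12, DMSO replicate 3 was at least 1.5 times the next DMSO library. The 12 were chosen for their fold change without that library, which partly fixes its place above the others.

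The smallest p-values among higher genes in no list were those of Ptplb (now Hacd2), an enzyme of very long chain fatty acid elongation, Slc22a23, an orphan transporter, Sort1, the sorting receptor sortilin, Cycs, cytochrome c, Cmbl and Adipor2, a receptor of adiponectin. Ptplb had 152, 147, 197 and 145 CPM in DMSO and 380, 380, 420 and 438 in ROSI. Sort1 had 11.4 to 22.1 and 55.2 to 62.4 CPM, a log2 fold change of 1.82 ± 0.18. Adipor2 rose from 58.9 to 111 CPM to 239 to 292, while Adipoq, which encodes its ligand, had 7.05 to 15.0 CPM in DMSO and 11.8 to 16.0 in ROSI and did not pass (edgeR adjusted p = 0.34).

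Many interferon-response genes were lower. Interferons bind receptors on the cell surface, which act through JAK kinases and transcription factors such as STAT2 and IRF9 to raise many antiviral genes. Of 5 tested ligands and receptors 0 fell and 1 rose, with a median of -0.34, and 0 of 5 is near the 12.6% of all genes. Ifngr1, the ligand-binding chain of the interferon gamma receptor, rose from 80.5, 106, 107 and 85.8 CPM to 136, 129, 158 and 160 (0.62 ± 0.13). Ifnar1 was at 0.06 ± 0.14, Ifnar2 at -0.34 ± 0.13, Ifngr2 at -0.47 ± 0.20 and Il10rb at -0.57 ± 0.25, and none of these 4 passed the threshold, although for Ifnar2 and Il10rb all 4 ROSI libraries lay below all DMSO libraries. No interferon gene itself had enough reads to be tested.

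Of 16 signalling and transcription factors of the pathway, 11 were lower and 0 higher (68.8% against 12.6%). Stat2 had 285, 205, 142 and 195 CPM in DMSO and 50.1 to 54.1 in ROSI (-1.98 ± 0.20). Usp18, a feedback inhibitor of the type I receptor, had 65.1, 45.6, 28.6 and 39.7 CPM in DMSO and 4.61 to 6.32 in ROSI (-3.00 ± 0.31). Parp14, a mono-ADP-ribosyltransferase, was at -1.97 and Irf7 at -3.66 on the log2 scale, both called lower. The members not called were the kinases Jak1, Jak2 and Tyk2 and the factors Irf2 and Irf3. Jak1 was at -0.12 ± 0.15 and Irf3 at 0.05 ± 0.18.

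Among 22 nucleic acid sensors and their effectors 18 were lower and 0 higher (81.8%), and all 20 interferon-inducible GTPases were lower (19 without DMSO replicate 3). Oasl2, of the oligoadenylate synthetase family, had 385, 224, 203 and 294 CPM in DMSO and 17.0, 16.9, 25.5 and 24.5 in ROSI (-3.71 ± 0.31). Samhd1, which degrades nucleotides, fell less, from 292 to 340 CPM to 131 to 153 (-1.11 ± 0.11). Mavs, the adaptor downstream of the RNA sensors, was at 0.14 ± 0.12 and did not pass. Iigp1, a GTPase that attacks the vacuoles of parasites, had 103, 62.2, 42.5 and 57.5 CPM in DMSO and 2.72 to 3.81 in ROSI (-4.40 ± 0.39). Irgm2 had 58.4 to 123 and 14.5 to 19.9 CPM. Many Gbp, Oas and Tgtp genes are close copies of each other, so their single values are less certain than the family's direction. The medians over these lists were -1.87 for the sensors and -2.49 for the GTPases.

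The vehicle libraries differed among themselves in the interferon programme. The GTPase median stood 1.87, 1.36, 0.83 and 1.23 above the 8-library mean (log2) in DMSO replicates 1 to 4, and between -1.05 and -1.46 in ROSI. Reads on the receptor genes were 775, 667, 295 and 383 CPM there, and their part in this spread was not tested. Without DMSO replicates 1 and 2, which had most of those reads, 11 signalling genes, 16 sensors and 18 GTPases were lower. The DMSO libraries kept, replicates 3 and 4, had 295 and 383 CPM of such reads against 62.8 to 75.98 in ROSI. This fit therefore does not separate the part of those reads. On these lists DMSO replicate 3 lay 0.24, 0.25 and 0.24 of the way to ROSI.

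Outside the lists, Ifi44, Ifit3, Rsad2, Ifit1, Phf11d, Lgals9, Cmpk2, Apol9b and Rtp4 were among the 12 largest decreases, and most of these are known interferon-induced genes. Ifit1 had 510, 292, 212 and 327 CPM in DMSO and 21.8, 19.4, 27.9 and 23.1 in ROSI (-3.85 ± 0.39), and Ifit3 131, 82.1, 59.1 and 107 against 3.01 to 7.02 (-4.03 ± 0.40). Rsad2, which encodes viperin, fell by 3.95 on the log2 scale. Both Ifit promoters hold 2 matches to the element, as printed above, but these genes were picked for holding it. They therefore cannot be set against the 3.44% of all promoters in the table that hold it. Shares for the interferon lists themselves are void, because fewer than 80% of their members matched the promoter table. The remaining 3 were Col24a1, a fibrillar collagen (6.77 to 13.0 CPM in DMSO, 0.201 to 0.517 in ROSI), Pla1a, a phosphatidylserine phospholipase, and Thsd4, a protein of microfibril assembly.

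Antigen presentation was lower in part. Of 27 genes of MHC class I and the immunoproteasome, 12 fell and 0 rose (44.4% against 12.6%). H2-T23 had 81.3, 77.9, 59.7 and 71.6 CPM in DMSO and 16.0 to 32.0 in ROSI (-1.59 ± 0.25), and H2-T24 had 11.5 to 23.8 and 2.51 to 4.92. The light chain B2m (-0.91) and the peptide transporter Tap1 (-1.44) fell too. H2 genes are near-identical in places, so reads may be split between them. The count was 7 without DMSO replicates 1 and 2, and 18 in the fit without TBT replicate 4. On the 7 genes that were at least 2-fold lower without DMSO replicate 3, that library lay 0.41 of the way to ROSI.

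Complement, the plasma cascade that tags microbes, had 12 of 21 genes lower and 2 higher (57.1% and 9.52%). Serping1, the inhibitor of its first step, had 185, 216, 159 and 226 CPM in DMSO and 21.3, 23.5, 28.1 and 22.1 in ROSI, the smallest p of the group (-3.04 ± 0.16, edgeR adjusted p = 1e-08). Cfb, of the alternative pathway, went from 88.9 to 133 CPM to 18.2 to 25.5. The protease genes C1s1 (551 to 846 and 129 to 198 CPM) and C1s2 (102 to 131 and 21.2 to 33.4) both fell, but they are close copies. Cd59a, which protects cells from the membrane attack complex, rose by 1.14 ± 0.20. Of 14 chemokines and receptors 8 fell and 1 rose. Cxcl10 had 9.27, 2.57, 3.45 and 3.79 CPM in DMSO and 0.251 to 0.517 in ROSI, and Ccl5 12.6 to 21.4 and 1.204 to 5.69. Cxcl13, a B cell attractant, rose from 3.00 to 9.12 CPM to 10.1 to 23.7.

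**Figure D5:**
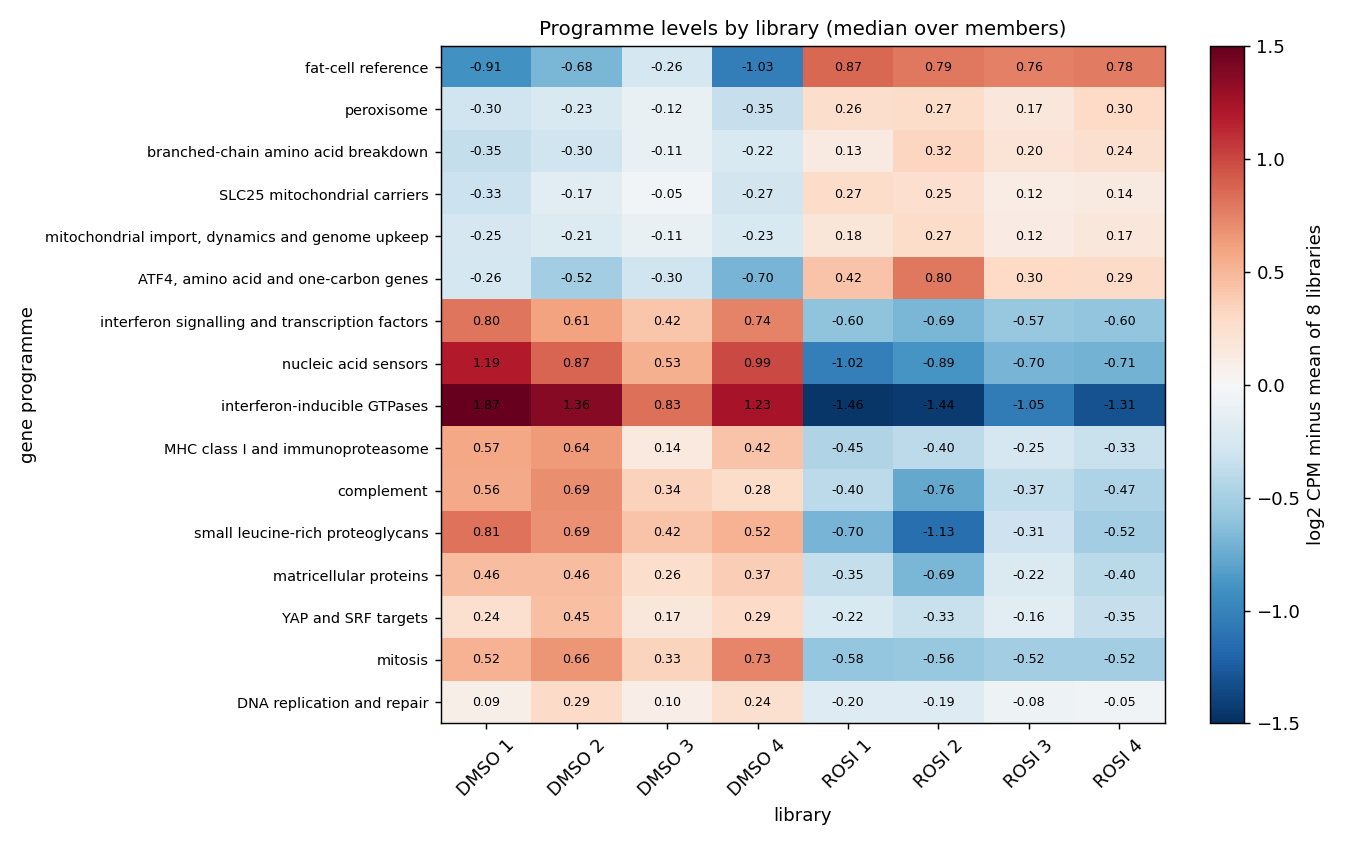
Median over the members of each programme of log2 CPM minus the gene's mean over the 8 libraries, for each library; red is above and blue below the mean. DMSO replicate 3 is the palest vehicle library for the fat-cell (-0.26) and GTPase (0.83) programmes, and ROSI replicate 2 the most intense for the ATF4 programme (0.80).

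Many genes of the stromal matrix were lower. Of 11 small leucine-rich proteoglycans, which coat collagen fibrils, 7 fell and 0 rose (63.6% against 12.6%). Decorin (Dcn) had 867, 1022, 525 and 776 CPM in DMSO and 177, 152, 233 and 155 in ROSI (-2.15 ± 0.19), lumican (Lum) 32.3 to 55.7 and 5.02 to 13.3, and Omd, which bone cells make, 36.9 to 53.6 and 10.3 to 15.5. Of 25 matricellular proteins, which modify cell attachment without being structural, 13 fell and 3 rose. Thbs2, thrombospondin 2, was abundant, at 4827, 4915, 4323 and 5450 CPM in DMSO and 739, 931, 987 and 753 in ROSI (-2.52 ± 0.15). Among the osteoblast markers, Spp1, osteopontin, which is also a matricellular protein, went from 283 to 500.1 CPM to 79.2 to 112, and the collagen I chain Col1a1 from 123 to 165 to 29.9 to 69.2. The part of those cell type markers in the matrix and WNT decreases was not tested. Smoc2 and Smoc1, 2 related calcium-binding proteins, moved in opposite directions. Smoc2 went from 32.0 to 48.9 CPM to 3.63 to 5.56, and Smoc1 from 0.238 to 1.38 CPM to 3.32 to 4.61.

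Basement membrane genes were mixed, with 7 of 20 lower and 3 higher. Egfl6 (94.1 to 272 and 8.27 to 19.5 CPM), Nid2, a laminin-binding nidogen (54.3 to 78.6 and 13.0 to 18.2), and the collagen IV chain Col4a5 (63.8 to 70.0 and 27.7 to 36.9) fell. Lama4, a laminin chain that surrounds fat cells, rose from 16.9, 13.3, 31.4 and 15.8 CPM to 70.2, 85.8, 66.2 and 73.4 (1.91 ± 0.22, and 2.28 without DMSO replicate 3). Col15a1 rose by 2.58 ± 0.39 and Lamb1 by 0.88. Of 22 genes of elastic fibres and collagen crosslinking, 9 fell and 2 rose (40.9% and 9.09%). Ltbp1, which holds latent TGF-beta in the matrix, had 661 to 942 CPM in DMSO and 271 to 366 in ROSI. Fbn1, fibrillin 1 (-0.97), and Emilin2 (-1.17) fell too. Neither of the 2 increases was called without DMSO replicate 3. The rise of P4ha2, a collagen prolyl hydroxylase (0.60 ± 0.20), was lost without DMSO replicate 1, 3 or 4, without ROSI replicate 1, 3 or 4 and without TBT replicate 3.

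Of 31 matrix proteases and inhibitors, 14 fell and 1 rose (45.2% and 3.23%). Adamts5, which cuts aggrecan, had 279 to 405 CPM in DMSO and 93.5 to 108 in ROSI. Plat, tissue plasminogen activator, went from 107 to 145 CPM to 31.9 to 47.9, and Adamts2, which trims procollagen, from 244 to 342 to 110 to 132. Mmp11, stromelysin 3, rose from 17.7 to 31.1 CPM to 41.4 to 64.0. Of 39 genes of hyaluronan and sulfated glycan synthesis, 11 fell and 1 rose, a count of lower genes that was 7 without DMSO replicate 1 or DMSO replicate 4 and 6 without ROSI replicate 3 or ROSI replicate 4. Sulf2, an extracellular sulfatase, had 262 to 367 and 89.3 to 169 CPM. Has2, a hyaluronan synthase, had 33.5 to 46.3 and 17.9 to 25.6. The rise of the syndecan gene Sdc3 (1.95 ± 0.59) had 1 ROSI library at 0.632 CPM, within the DMSO range of 0.316 to 1.11, and was lost without DMSO replicate 2 or 4 and without ROSI replicate 1, 3 or 4.

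Integrins, the receptors for matrix, had 9 of 17 genes lower and 2 higher (52.9% and 11.8%). Itgbl1, an integrin-like secreted protein, had 318 to 508 CPM in DMSO and 106 to 166 in ROSI. The laminin and collagen receptor subunits Itga3 (-0.90) and Itga1 (-1.03) fell. Itga6, another laminin receptor subunit, rose from 17.4 to 18.4 CPM to 28.9 to 40.6 and Itga7 by 1.15. On the 6 integrin genes at least 2-fold lower without DMSO replicate 3, that library lay only 0.03 of the way to ROSI, and on 4 elastic fibre genes 0.05.

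YAP and SRF are factors that respond to cell tension and the actin cytoskeleton. The list of their targets, which also holds the factors themselves, such as Yap1 and Srf, had 22 of 36 genes lower and 1 higher (61.1% and 2.78%). Ctgf had 44.0, 64.6, 38.5 and 46.6 CPM in DMSO and 9.64 to 13.3 in ROSI (-2.02 ± 0.21). Axl, a receptor tyrosine kinase, had 669 to 874 and 328 to 363 CPM, and Fhl2 29.2 to 49.0 and 14.5 to 17.7. Amotl1, which binds YAP, was higher at 0.46 ± 0.13, a call lost without DMSO replicate 1, DMSO replicate 2 or ROSI replicate 2. Of 10 smooth muscle and pericyte markers, 8 were tested, of which 4 fell and 1 rose. The markers summed to 825 to 1063 CPM in DMSO and 413 to 477 in ROSI. Acta2, with means of 658 and 325 CPM, made up most of this sum. Acta2, Tagln and Cnn1 are in both lists, so the markers are not a separate result.

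Secreted signals were lower more often than higher. Of 34 WNT genes 12 fell and 3 rose (35.3% and 8.82%). Both tested ligands and all 5 tested secreted inhibitors fell (4 inhibitors without DMSO replicate 3), whereas among 12 receptors 2 rose and 2 fell. The inhibitor Sfrp1 had 11.2, 12.4, 5.53 and 10.1 CPM in DMSO and 0.201 to 1.00 in ROSI (-3.76 ± 0.47). The ligand Wnt2b had 15.9 to 30.8 and 6.86 to 7.82 CPM. Porcn, which attaches the lipid that WNT ligands need for secretion, rose from 20.5 to 35.8 CPM to 56.8 to 89.8 (1.44 ± 0.19). The count of lower WNT genes was 10 without DMSO replicate 3, and 7 without DMSO replicate 1 or without ROSI replicate 2.

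Of 43 growth factor genes 19 fell and 3 rose (44.2% and 6.98%). Figf (now Vegfd), a lymphatic growth factor, was abundant in vehicle, with 3012, 3120, 2199 and 2838 CPM against 951, 842, 949 and 816 in ROSI (-1.65 ± 0.14). Vegfa, the blood vessel growth factor, moved the other way, from 109, 125, 197 and 98.1 CPM to 473, 384, 422 and 368 (1.64 ± 0.18). The receptor Pdgfra fell from 1144 to 1732 CPM to 431 to 525, and Pdgfrl from 20.7 to 37.3 to 7.11 to 9.05. By role, 12 of 27 ligands and binding proteins and 7 of 16 receptors fell. Nrg4, a neuregulin that fat cells secrete, rose by 1.09. The lowest fold was that of Igfbp2, but its DMSO levels were only 2.07 to 5.85 CPM and 2 ROSI libraries had no read.

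Genes of TGF-beta and BMP signalling were near the background, with 8 of 42 lower and 1 higher (19.05% and 2.38%), a count that was 14 without TBT replicate 4. Bmp4 had 3.04 to 5.70 CPM in DMSO and 0.316 to 1.29 in ROSI, Bmp1 53.7 to 64.5 and 26.7 to 30.9, and Fstl1, a follistatin-like protein, 321 to 619 and 161 to 235. The rise of Id1, a BMP target (0.83 ± 0.24), was lost without DMSO replicate 1, DMSO replicate 4 or ROSI replicate 3. Families first known from axon guidance had 11 of 36 genes lower and 3 higher. Slit3 (172 to 215 and 75.2 to 109 CPM), Epha1 (18.6 to 24.7 and 4.21 to 9.78) and Sema3e (15.8 to 22.2 and 5.06 to 8.93) fell, and the netrin receptor Unc5b rose from 8.42 to 10.2 CPM to 19.3 to 26.7. Of 13 Notch genes 2 rose and 2 fell (15.4% each). The ligand Jag1 rose by 0.86 and the target Hey1 by 1.72, while the fall of Notch2 (-0.33 ± 0.11) was lost without DMSO replicate 3 (edgeR adjusted p = 0.082), without DMSO replicate 2 or 4 and without any 1 of the 4 ROSI replicates.

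The smallest p-values among lower genes in no list were those of Il1rl1, the receptor of interleukin 33, Apod, apolipoprotein D, Abca9, a lipid transporter, Angptl7, C1s2 and Apol9a. Il1rl1 had 97.4, 83.5, 59.5 and 71.6 CPM in DMSO and 9.78, 12.0, 8.93 and 8.83 in ROSI (-2.97 ± 0.18). Apod had 103 to 168 and 14.3 to 22.3 CPM, Abca9 69.7 to 77.8 and 14.6 to 20.2, and Angptl7, an angiopoietin-like secreted protein, 278 to 402 and 59.4 to 85.0. In these genes DMSO and ROSI lay at least 3-fold apart in every pair of libraries. Apol9a and Apol9b are close copies, so their reads may be shared.

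Most mitosis genes were lower. Of 71 genes of mitosis, 52 fell and 0 rose (73.2% against 12.6%), with a median of -1.21. Of 49 genes of DNA replication and repair 9 fell and 0 rose (18.4%), with a median of -0.36, and the difference between the lists was not tested. Top2a had 59.2, 57.6, 46.7 and 75.9 CPM in DMSO and 16.0, 18.0, 18.4 and 22.1 in ROSI (-1.68 ± 0.18). Mki67 had 60.1, 66.7, 49.3 and 77.0 CPM in DMSO and 12.5, 6.95, 15.0 and 19.7 in ROSI (-2.23 ± 0.30). Hmmr, a spindle protein, went from 8.89 to 16.0 CPM to 1.504 to 2.69. Many of the others were low: Plk1, a mitotic kinase, had 2.14 to 4.74 CPM in DMSO and 0.401 to 1.504 in ROSI. Where only genes with a mean of at least 5 CPM were tested, 30 mitosis genes were lower, with fewer members tested. Mcm6, of the replicative helicase (-1.29), Fancd2, of crosslink repair (-2.06), and Pole, a DNA polymerase (-1.07), fell. The 7 histone genes tested had 0 calls. On the 44 mitosis genes at least 2-fold lower without DMSO replicate 3, that library lay 0.15 of the way to ROSI.

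Of the mitosis genes, 60 of 71 matched the promoter table. The cell cycle homology region was found in 64.2% of their 67 promoters and in 17.9% of all promoters. The CCAAT box, which binds NF-Y, was in 74.6% against 37.4%. E2F elements, searched as TTTGGCGC or TTTCCCGC, were in 8.96% against 1.56%. Among promoters of tested genes, of which 9724 of 12323 matched the table, these 3 shares were 12.3%, 38.0% and 2.88%. The list was made up of known mitosis genes, so its shares describe the list. In Mki67 the cell cycle element occurs 2 times in the stretch shown, and in Top2a 1 time, close to the start. The list of p53 targets and growth arrest genes had 7 of 35 higher and 3 lower (20% and 8.57%, against 10.0% and 12.6% of all genes). Without DMSO replicates 1 and 2, 3 were higher. Cdkn1a, the p21 inhibitor of cell cycle kinases, had 70.3, 83.5, 89.9 and 49.5 CPM in DMSO and 197, 178, 211 and 138 in ROSI (1.30 ± 0.21). Gas6, a ligand of Axl, fell from 668 to 802 CPM to 391 to 411.

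Several programmes had calls in both directions, to be read against the 10.0% higher and 12.6% lower of all genes. Of 43 glutathione and antioxidant genes 8 rose and 6 fell (18.6% and 14.0%). The higher count was 3 without DMSO replicate 1, DMSO replicate 2 or ROSI replicate 2, and 4 without ROSI replicate 1. It was 5 without DMSO replicate 3, DMSO replicate 4 or ROSI replicate 3. Mgst1, a membrane glutathione transferase, rose from 128 to 173 CPM to 258 to 331, Hmox1, heme oxygenase 1, from 119 to 173 to 243 to 347, and Gpx8 fell from 54.2 to 86.7 to 24.2 to 41.1. Of 55 lysosome and autophagy genes 9 rose and 5 fell (16.4% and 9.09%). Bnip3, a mitophagy receptor, had 65.8, 164, 129 and 37.3 CPM in DMSO and 310, 174, 365 and 317 in ROSI, so that ROSI replicate 2 lay just above the highest vehicle library. Man2b1, a lysosomal mannosidase, fell by 0.80 on the log2 scale. The number of higher lysosome genes was 4 without DMSO replicate 4 or ROSI replicate 1 and 5 without DMSO replicate 1 or ROSI replicate 2. Of lower ones it was 2 without ROSI replicate 4 and 3 without DMSO replicate 1 or 2 or ROSI replicate 2 or 3.

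Of 21 eicosanoid genes, 3 rose and 5 fell (14.3% and 23.8%, against 10.0% and 12.6% of all genes). Ephx2, soluble epoxide hydrolase, had 4.51, 4.91, 21.3 and 4.27 CPM in DMSO and 78.5, 105.2, 59.2 and 91.5 in ROSI, and its log2 fold change of 3.17 became 4.21 without DMSO replicate 3. Ptgs2, cyclooxygenase 2, fell from 64.1 to 81.3 CPM to 42.3 to 50.6. The number lower was 3 without DMSO replicate 1, ROSI replicate 1, ROSI replicate 2 or ROSI replicate 3. Of 22 clock genes 3 rose and 2 fell (13.6% and 9.09%). Genes induced by glucocorticoid, which both groups received as dexamethasone, split evenly, with 4 of 23 higher and 4 lower (17.4% each). The smallest p among the higher ones were those of Angptl4 (2.04 ± 0.21) and Pdk4 (1.56 ± 0.17), which are also in the fat-cell list. Hsd11b1, which regenerates active glucocorticoid, rose from 7.11 to 13.8 CPM to 27.5 to 32.7. Sdpr (now Cavin2), a caveolar coat protein, fell from 168 to 378 CPM to 64.2 to 103.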

How the data were processed

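Total RNA depleted of ribosomal RNA was read on a SOLiD instrument as single 50 nt reads that carry no strand, per the labels' protocols. Overlapping and antisense genes are thus not separable. The authors deposited raw read counts per gene symbol for 12 libraries and a second table, in log2 units after a regularized-log transform. The submitters' processing notes name mm9, DESeq2, SAMtools and FastQC. Which aligner, counter and annotation were used is not given in these sources.

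The deposited counts were fitted with edgeR 4.0.16 (R 4.3.3): filterByExpr by group (12323 genes kept), TMM factors, and a quasi-likelihood fit of all 12 libraries in 3 groups, contrast ROSI minus DMSO, with Benjamini-Hochberg adjustment over all genes and a threshold of 0.05. Higher and lower, rose and fell refer to calls at this threshold. CPM are scaled by TMM, except for the sensory receptor reads. A standard error is |log2 fold change| over the square root of F. Log2 CPM used a prior count of 2. A library's position is the median, over genes called by at least 2-fold without it, of its distance from its own group's other libraries as a fraction of the distance to the other group. No set test was made. No 2 libraries of a group were copies (the lowest chi-square per degree of freedom of a pair was 4.97).

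The fit was tested on simulated data for ROSI against DMSO (12323 genes): recovery was 14.9% at 1.5-fold, 65.7% at 2-fold and 98.5% at 4-fold, with 3 false among 122 calls. The simulation changed 67, 67 and 66 genes at these folds, against 2787 called in the data. With so few changes the adjusted threshold is stricter, so recovery in the data may be higher.

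The 37 programme and 12 marker lists and all rules were chosen with earlier results of these data known. Of 1644 entries, 1638 had a row. Lists share members. Genes named were, in each list, the 3 smallest p in the main direction and the 1 smallest in the other, the 12 largest changes each way without DMSO replicate 3 outside the lists (no overlap, mean of at least 5 CPM), the 6 smallest p each way outside the lists, those gained, lost or shifted most without DMSO replicate 3, and 5 fat-cell genes, of which Plin1 and Pparg are not described. Other genes named were chosen after their values were seen. Some genes that the rule names are not reported here. Promoters of 300 bases (250 before to 50 after the start) came from RefSeq, and lists with under 80% of members matched were left out. This rule was not applied to the tested genes as a whole, whose shares are given as a background.

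Alternatives were DESeq2 1.42.0 and its size factors, upper-quartile factors, testing every gene with reads, testing genes above a mean of 5 CPM, only the 8 libraries compared, a replicate block, limma 3.58.1 on the deposited log2 values, glmTreat at 1.2-fold, and each library left out. Leaving out DMSO replicates 1 and 2 together, and leaving out DMSO replicate 3 with only the 2 groups, were added after seeing the data.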

Additional observations from a re-analysis of the deposited data

Results flagged for a closer look

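In 22 of 380 groups of 4 libraries, 1 library of a named gene stood apart from the other 3, its gap to the nearest taking up most of the group's range (Dixon's test, 95% limit). Chance alone flags about 1 group in 20, and 22 of 380 is close to that rate. In 7 of the 22 the library was DMSO replicate 3. It was high in Ephx2 (21.3 CPM against 4.27 to 4.91), Crat (107.3 against 67.0 to 72.1), Reep6 (37.3 against 14.3 to 16.2), Chchd10 (21.1 against 0.790 to 1.19) and Ptplb (197 against 145 to 152), and low in Slit3 (171.8 against 208 to 215) and Ifngr2 (13.7 against 16.3 to 16.9). The library lay toward ROSI in these genes, but several of them, such as Chchd10 and Reep6, were named for their shift in that library or for their change without it, which partly fixes the direction. Ifngr2 did not pass the threshold between groups.

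The other DMSO libraries that stood apart were replicate 1 in Ccl5 (21.4 CPM, the others 12.6 to 13.3) and Fancd2 (4.51 against 3.51 to 3.63), and replicate 4 in Bnip3l (247 against 316 to 328), Thsd4 (29.2 against 15.7 to 16.3) and Drp2 (9.17 against 12.4 to 13.1). Among ROSI libraries, replicate 1 was low in Ifit3 (3.01 CPM against 6.21 to 7.02) and Apod (14.3 against 21.5 to 22.3), replicate 2 was low in Sdc3 (0.632 against 3.75 to 4.21) and high in Hspd1 (556.9 against 437 to 448), and replicate 3 was low in Jag1 (15.8 against 19.8 to 20.1). ROSI replicate 4 was low in Col4a5 (27.7 against 35.2 to 36.9), Col24a1 (0.201 against 0.474 to 0.517) and Muc6 (10.2 against 12.2 to 12.5), and high in Mrpl38 (13.4 against 10.9 to 11.3) and Stc2 (42.7 against 40.1 to 40.4). The causes were not tested.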

How the results depend on the processing

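The counts of calls kept within 1.5 times of the reported ones under most alternatives. Of 2787 genes past the threshold, 1706 passed without DMSO replicates 1 and 2 (712 higher and 994 lower), an alternative with fewer samples that was chosen after seeing the data. Without a filter on low counts, where more genes were tested, 2352 were lower, 1654 of them by at least 2-fold, and the higher share of calls was 37.5% against 44.4%. With a mean of at least 5 CPM, where fewer genes were tested, 506 were at least 2-fold lower. With glmTreat at 1.2-fold 769 were higher. On the deposited regularized-log values, which are shrunken, 145 and 219 genes were at least 2-fold higher and lower. Leaving out 1 library gave 2188 to 3418 calls, with 926 to 1581 higher, 1251 to 1837 lower, 345 to 473 at least 2-fold higher and 698 to 809 at least 2-fold lower, the most calls coming without TBT replicate 4. Upper-quartile factors gave 1110 higher and 1679 lower, and the median of all genes moved between -0.02 and 0.02 under the scalings tried. The position of DMSO replicate 3 stayed between 0.26 and 0.28. Of the named genes, Ifnar1 (log2 fold change 0.06) ranged from -0.014 without DMSO replicate 4 to 0.140 without ROSI replicate 3 where 1 library was left out. Without DMSO replicates 1 and 2 it was 0.22, and Anxa2 went from -0.69 to 0.053. For Anxa2 and Ifnar1 the cause was not tested.

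The replicate numbers did not pair the libraries: deviations of same-numbered DMSO and ROSI libraries correlated at -0.008, -0.056, -0.095 and 0.106 across genes. A fit with a replicate block gave 2289 calls, 991 higher and 1298 lower, with 379 and 748 by at least 2-fold. At 4027152 to 7474654 counts per library, the simulation recovered 14.9% of 1.5-fold changes. It changed far fewer genes than were called in the data, so this share may be too low for them. A gene not called may still differ by 1.5-fold.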
